A study of Mus musculus with 6 samples.

Results

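Inhibitory checkpoint receptors and the TOX factors were examined in mouse CD4+ T cells activated under Th1 conditions with or without ALX-5407, a compound that blocks glycine uptake through GlyT1 (Slc6a9). The 10 genes were taken by name from the gene count file: the receptors Pdcd1, Ctla4, Lag3, Havcr2, Tigit, Cd160, Btla and Vsir, and the transcription factors Tox and Tox2. They are 10 of 54532 genes listed, and all 10 passed the filter on low counts that left 15938 genes for testing. The CD4+ T cells came from spleens of male C57BL/6 mice aged 6 to 8 weeks and were obtained by magnetic negative selection. All 6 cultures were stimulated for 72 h on plate-bound anti-CD3 with anti-CD28, IL-2, IL-12 and anti-IL-4. Values after ± are SDs over the 3 cultures of a group throughout. In 3 cultures ALX-5407 was present, at 500 nM by the study's methods. The other 3 are called vehicle cultures here after those methods (0.1% DMSO), although the labels name no vehicle and the study elsewhere calls its controls untreated. The labels give 72 h for the Th1 condition and no separate time for the drug. The study's sequencing methods give 24 h of exposure, whereas its figure legend describes cells treated in the medium and cultured for 3 days. The time of exposure is therefore not settled. The labels call the cultures biological replicates, but nothing in them ties a culture to one mouse or to a pool of mice. The p-values thus weigh the group difference against the variation between these cultures, not between known mice.

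Checkpoint receptors are surface proteins that activated T cells put in place to restrain their own response. Most recruit phosphatases or compete for shared ligands when they meet a partner on another cell, and in this way they lower signalling from the T cell receptor and from CD28. TOX and TOX2 are HMG-box DNA-binding proteins best known for maintaining the exhausted state of chronically stimulated T cells, in which several of these receptors are expressed together. In recently activated CD4+ T cells the same receptors are part of normal feedback, and some also mark regulatory or follicular helper T cells.

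Depth was similar among the 6 libraries, from 30801753 to 36727788 counts. The study's comparison asked how ALX-5407 alters Th1 cells, and it touched a large part of the transcriptome. In edgeR's quasi-likelihood test, 24.5% of the genes tested were higher and 23.2% were lower in ALX-5407-treated Th1 cells at a Benjamini-Hochberg adjusted p-value under 0.05, together 47.7%. With an added threshold of an absolute log2 fold change over 1, these shares were 3.36% and 6.68%. The median log2 fold change of all genes tested was 0.0053. Of the 10 genes examined here, 2 were higher and 3 were lower at the first threshold, near the share of all genes, and 1 was higher and 1 lower at the second. The CPM ranges of vehicle and treated cultures did not overlap for 6 of the 10 genes, against 55.5% of all genes tested. The receptors did not move in one direction. Havcr2 rose, Btla, Pdcd1 and Ctla4 fell, and Vsir rose slightly. Lag3, Tigit, Cd160, Tox and Tox2 did not pass the test. In these bulk libraries, fewer cells of a type and less RNA per cell cannot be told apart.

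The 2 genes that changed more than 2-fold, Havcr2 and Btla, are shown by the sequence around their transcription start, 250 bases before it to 50 after it, read from RefSeq on GRCm38.p6 in the direction of the gene. The Havcr2 window is chr11:46454681-46454980 and the Btla window is chr16:45224087-45224386, both on the + strand. Capitals mark the matches to 4 short motifs searched on both strands: GGAAA (the core bound by NFAT), TGANTCA (AP-1), TCACACC (T-box factors) and TGATGNAA (ATF4).
Havcr2: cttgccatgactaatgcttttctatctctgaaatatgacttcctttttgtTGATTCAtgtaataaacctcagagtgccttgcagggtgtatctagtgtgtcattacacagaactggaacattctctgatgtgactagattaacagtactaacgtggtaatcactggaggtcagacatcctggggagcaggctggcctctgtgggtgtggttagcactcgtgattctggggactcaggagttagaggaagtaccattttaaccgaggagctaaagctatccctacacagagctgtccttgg
Btla: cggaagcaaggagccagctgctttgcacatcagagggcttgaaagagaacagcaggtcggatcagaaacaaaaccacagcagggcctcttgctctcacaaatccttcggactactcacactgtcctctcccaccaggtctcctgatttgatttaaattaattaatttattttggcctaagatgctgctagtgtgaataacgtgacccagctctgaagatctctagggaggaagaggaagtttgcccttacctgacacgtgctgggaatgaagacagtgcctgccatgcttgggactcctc
The only match in these 2 windows was an AP-1 sequence in Havcr2, beginning at position -200 from the start site, and it overlaps no other motif. The AP-1 letters occur in 7.81% of the 32851 windows of the same length. The table of start sites matched 8 of the 10 genes, all but Lag3 and Tox. Among those 8, the NFAT core was found in the windows of Ctla4, Pdcd1 and Tigit and in some of the windows of Cd160 and Tox2, against 61.3% of all windows. The T-box letters were found in 1 window of Cd160 (3.98% of all windows), and the ATF4 letters in none of them (3.97% of all windows). The Havcr2 and Btla windows held 3 and 5 CG dinucleotides, where the median window had 7. These matches describe letters in the windows and not binding.

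Havcr2 encodes TIM-3, a receptor for galectin-9 and other ligands that was first described on Th1 cells. It lies on chromosome 11 from 46454935 to 46481255 (ENSMUSG00000020399, + strand, GRCm38). Its counts were 189, 213 and 176 in the vehicle cultures and 550, 567 and 468 with ALX-5407. In CPM, which are counts relative to library size after TMM scaling, these were 5.80, 6.79 and 5.72 against 15.6, 15.2 and 13.3. Every treated culture was above every vehicle culture. The mean rose from 6.11 ± 0.597 to 14.7 ± 1.19 CPM, which on the log2 scale is 1.27 (95% interval 0.99 to 1.54, adjusted p = 7.98e-07 from edgeR). This is a 2.41-fold rise, and Havcr2 was the only one of the 10 genes to rise past 2-fold.

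Btla encodes a receptor of the CD28 superfamily that binds HVEM, the product of Tnfrsf14. It lies on chromosome 16 from 45224315 to 45257670 (ENSMUSG00000052013, + strand). Its level was 271.5, 269.5 and 352.6 CPM in the vehicle cultures and 131.9, 135.0 and 154.0 CPM with ALX-5407. The groups did not overlap, and the third vehicle culture stood above the other 2. The mean fell from 297.9 ± 47.4 to 140.3 ± 12 CPM, which on the log2 scale is -1.09 (95% interval -1.30 to -0.88, adjusted p = 2.55e-07 from edgeR). Without the third vehicle culture the log2 fold change was -0.96, less than 2-fold but still past the test, and no gene of the 10 then fell by more than 2-fold.

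Pdcd1 and Ctla4 encode PD-1 and CTLA-4. PD-1 binds PD-L1 and PD-L2 and dampens signalling through the phosphatase SHP-2. CTLA-4 binds CD80 and CD86 with higher affinity than CD28 does and removes them from other cells. Both genes lie on chromosome 1, Pdcd1 from 94038305 to 94052553 (- strand) and Ctla4 from 60887000 to 60915832 (+ strand). Pdcd1 was at 29.6, 28.1 and 28.8 CPM in the vehicle cultures and at 19.3, 21.6 and 19.3 CPM with ALX-5407. Ctla4 was at 987.8, 970.6 and 977.7 CPM in the vehicle cultures and at 771.0, 740.5 and 629.1 CPM with ALX-5407. For both genes all treated cultures were below all vehicle cultures, and for Ctla4 the third treated culture was the lowest. Pdcd1 had a log2 fold change of -0.52 (95% interval -0.72 to -0.33) and Ctla4 of -0.46 (95% interval -0.62 to -0.29), each with an adjusted p = 0.00018 from edgeR. These are changes of -30.5% and -27.1%.

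**Figure D1:**
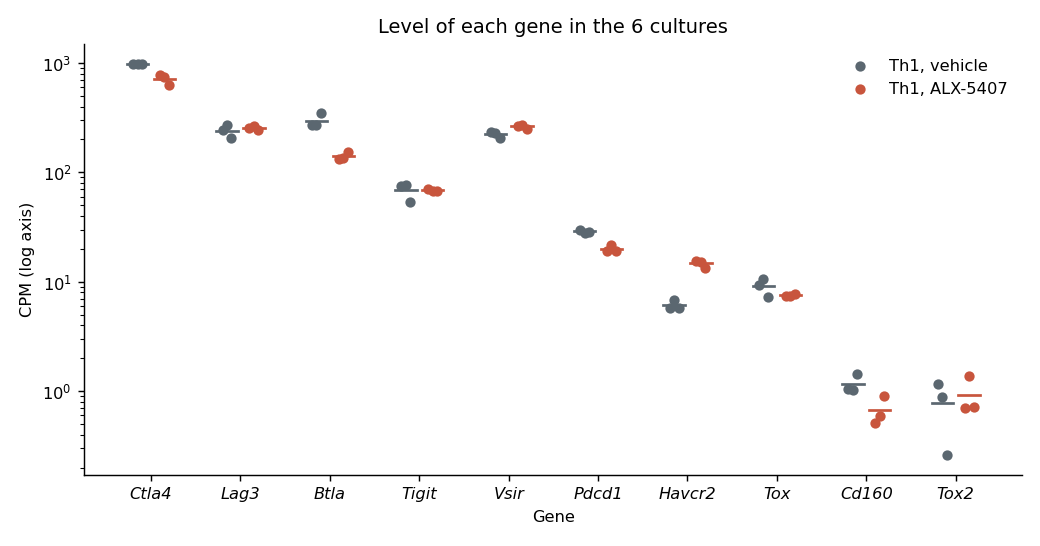
The level of each gene in CPM (log axis) is shown for the 3 vehicle cultures (grey) and the 3 ALX-5407 cultures (red), with points for cultures and lines for means. Havcr2 is the gene that lies clearly higher in red (5.72 to 6.79 against 13.3 to 15.6 CPM), Vsir lies slightly higher, and Btla, Pdcd1, Ctla4 and Cd160 lie lower in red with no overlap.

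Vsir encodes VISTA, an inhibitory protein of the B7 family that acts both as ligand and as receptor. It lies on chromosome 10 from 60346851 to 60372684. Its level was 232.3, 230.0 and 205.7 CPM in the vehicle cultures and 267.3, 269.8 and 251.8 CPM with ALX-5407. The treated cultures were all higher, but by little: the log2 fold change was 0.24 (95% interval 0.09 to 0.39, adjusted p = 0.0122 from edgeR), a change of 18.1%. Without the second treated culture the adjusted p was 0.0594 from the same test, so this call depends on that library. Vsir lies inside the span of Cdh23, a gene on the opposite strand whose exons share no base with it. Cdh23, noted after its values were seen, went from 71.3 ± 9.33 to 15.6 ± 0.246 CPM, the opposite direction.

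Lag3, Tigit and Cd160 did not pass the test. LAG-3 is related to CD4 and binds MHC class II, TIGIT competes with the activating receptor CD226 for the nectin-family ligands CD155 and CD112, and CD160 shares the ligand HVEM with BTLA. Lag3 (chromosome 6 from 124904361 to 124911705) was at 241.7, 272.7 and 204.8 CPM in the vehicle cultures and at 254.7, 263.1 and 242.3 CPM with ALX-5407. Its log2 fold change was 0.08 (95% interval -0.11 to 0.27, adjusted p = 0.495 from edgeR), and the interval spans a fold of 0.926 to 1.21. The groups overlapped, with the third vehicle culture lowest, and without it the value was -0.037.
Tigit (chromosome 16 from 43648867 to 43664146) was at 75.4, 77.4 and 53.8 CPM in the vehicle cultures and at 70.9, 66.9 and 68.0 CPM with ALX-5407. The third vehicle culture was lowest of all 6, and the groups overlapped. The log2 fold change was -0.0053 (95% interval -0.23 to 0.22, adjusted p = 0.975 from edgeR), and -0.17 without that culture (edgeR, adjusted p = 0.0529). Cd160 (chromosome 3 from 96798763 to 96829351) had few counts, with 34, 32 and 44 counts in the vehicle cultures and 18, 22 and 32 with ALX-5407. The lowest vehicle culture, at 1.02 CPM, was just above the highest treated one, at 0.913 CPM. The log2 fold change was -0.79 (95% interval -1.58 to -0.004, adjusted p = 0.0917 from edgeR), and without the third treated culture it was -1.07 with an edgeR adjusted p of 0.049, which would make Cd160 another gene lower by more than 2-fold. A few exon bases of Cd160 (2.57%) are shared with Pdzk1 on the opposite strand, which had at most 14 counts.

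Neither TOX factor passed the test. Tox (chromosome 4 from 6686353 to 6991557) had 307, 332 and 225 counts in the vehicle cultures and 261, 276 and 273 with ALX-5407. In CPM these were 9.43, 10.6 and 7.31 against 7.39, 7.40 and 7.79, so that the third vehicle culture was as low as the treated ones. The log2 fold change was -0.28 (95% interval -0.59 to 0.037, adjusted p = 0.138 from edgeR), and without the third vehicle culture it was -0.43 (edgeR, adjusted p = 0.0174). Tox2 (chromosome 2 from 163203125 to 163324170) had 38, 28 and 8 counts in the vehicle cultures and 25, 51 and 25 with ALX-5407. The third vehicle culture was the lowest and the groups overlapped. Its interval ran from -0.74 to 1.26 around a log2 fold change of 0.26 (edgeR, adjusted p = 0.683), so a difference in either direction could not be resolved with these cultures. Tox4, another family member, differed by 0.07 on the log2 scale (edgeR, adjusted p = 0.441), and Tox3 did not pass the filter.

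**Figure D2:**
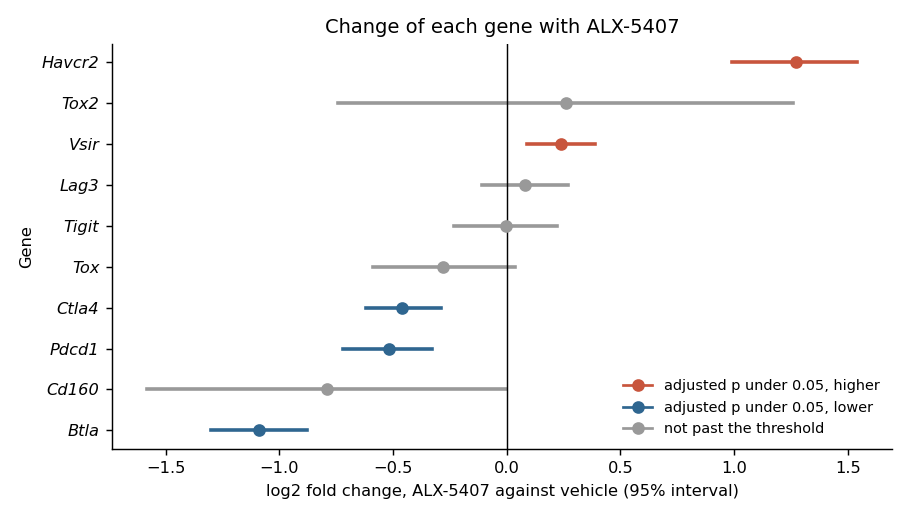
Points give the log2 fold change of each gene between ALX-5407 and vehicle cultures (n = 3 each) and bars its 95% interval, coloured by the edgeR call. Havcr2 stands alone on the right at 1.27, Btla is lowest at -1.09, and the widest intervals belong to Cd160 and Tox2.

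Levels were compared between genes only after division by gene length, as RPKM (CPM per kilobase of exon). On this scale Ctla4 was by far the most abundant, at 420.1 ± 3.71 RPKM in vehicle and 306.2 ± 32.1 RPKM in treated cultures, above 99.3% and 99.2% of the genes tested. In vehicle cultures Lag3 (113.7 RPKM), Btla (87.7 RPKM) and Tigit (74.9 RPKM) followed. The ranges of Lag3 and Btla overlapped, as did those of Btla and Tigit. Vsir (44.4 RPKM), Pdcd1 (14.9 RPKM), Havcr2 (2.24 RPKM), Tox (1.20 RPKM), Cd160 (0.441 RPKM) and Tox2 (0.227 RPKM) came next with no overlap between neighbours. With ALX-5407 the order changed in that Btla (41.3 RPKM) stood below Tigit (74.7 RPKM) and Vsir (52.5 RPKM), and the ranges of Tox2 and Cd160 overlapped at the bottom. Despite its rise, Havcr2 at 5.41 RPKM remained below Pdcd1 at 10.4 RPKM in treated cultures. TIM-3 transcripts were thus a minor part of the receptor pool under both conditions.

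Summed over the 8 receptors, the level was 764.7, 772.8 and 737.7 RPKM in vehicle cultures and 636.9, 626.0 and 569.7 RPKM with ALX-5407. All treated cultures were below all vehicle cultures, and most of the difference was in Ctla4 and Btla. Of this sum, Ctla4 made up 55.4% ± 1.5 in vehicle and 50.1% ± 2.39 in treated cultures. The share of Btla went from 11.6% ± 2.14 to 6.80% ± 1.01, and that of Havcr2 from 0.296% ± 0.0239 to 0.884% ± 0.0202. Lag3 went from 15% ± 1.75 to 19.7% ± 0.624 of the sum and Vsir from 5.85% ± 0.259 to 8.60% ± 0.225. These shares are given without a test, since they follow from the levels above.

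**Figure D3:**
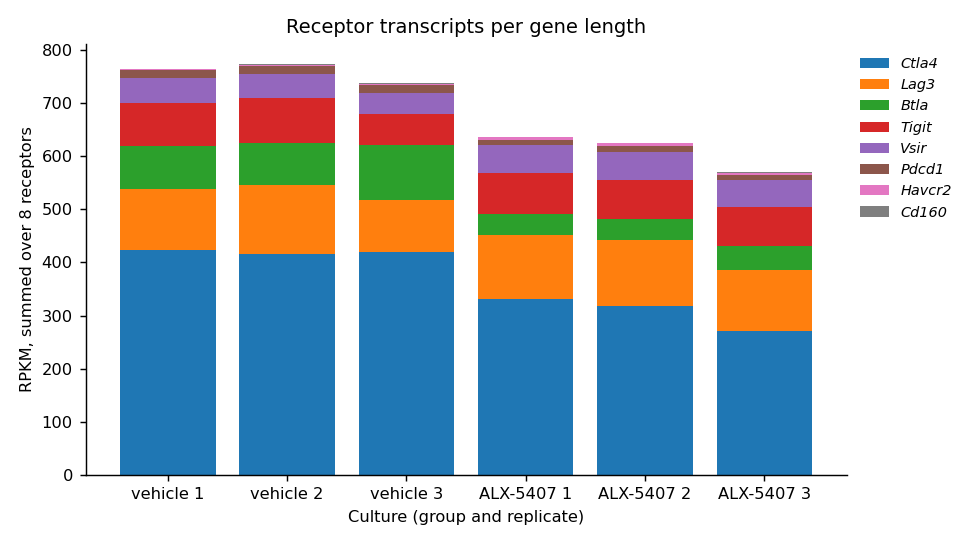
Bars stack the RPKM of the 8 receptor genes in each culture. The vehicle cultures reach 737.7 to 772.8 RPKM and the treated ones 569.7 to 636.9 RPKM, with Ctla4 the largest part in every bar.

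Several receptors have a partner with the opposite role, and the ratio of both within a culture does not depend on how libraries are scaled. These are ratios of counts, not corrected for length, so only their difference between groups is read. CD28 delivers the costimulatory signal that CTLA-4 opposes. The log2 ratio of Ctla4 to Cd28 counts was 0.94, 0.83 and 0.85 in the vehicle cultures and 0.07, 0.01 and -0.40 with ALX-5407, a difference of -0.98. All treated cultures were below all vehicle cultures, and the third treated culture was the lowest. Cd28 itself rose from 535.0 ± 18.0 to 766.5 ± 54.9 CPM, or 0.52 on the log2 scale (edgeR, adjusted p = 2.44e-05). The log2 ratio of Tigit to Cd226 was 1.71, 1.62 and 0.81 in vehicle cultures and 2.39, 2.15 and 2.08 with ALX-5407, a difference of 0.83, or 0.54 without the third vehicle culture. Tigit did not pass the test, and its activating rival Cd226 fell, from 26.2 ± 3.92 to 14.9 ± 1.27 CPM, or -0.82 on the log2 scale (edgeR, adjusted p = 2.50e-05).
The log2 ratio of Lag3 to its homolog Cd4 went from -1.46, -1.37 and -1.48 to -0.88, -0.87 and -0.92, a difference of 0.54, and Cd4 differed by -0.46 on the log2 scale (edgeR, adjusted p = 0.000174). For each of these 3 ratios the groups did not overlap, and the exact permutation test (two-sided, 3 against 3 cultures) gave p = 0.1, the smallest value this design allows, and 0.133 after Benjamini-Hochberg adjustment over 4 ratios. The ratio of Tox to Tox2 overlapped between groups (difference -0.69, exact permutation p = 0.4). That difference rested on single libraries, as it was -0.20 without the third vehicle culture, -0.37 without the second treated culture and -1.07 without the first vehicle culture.

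**Figure D4:**
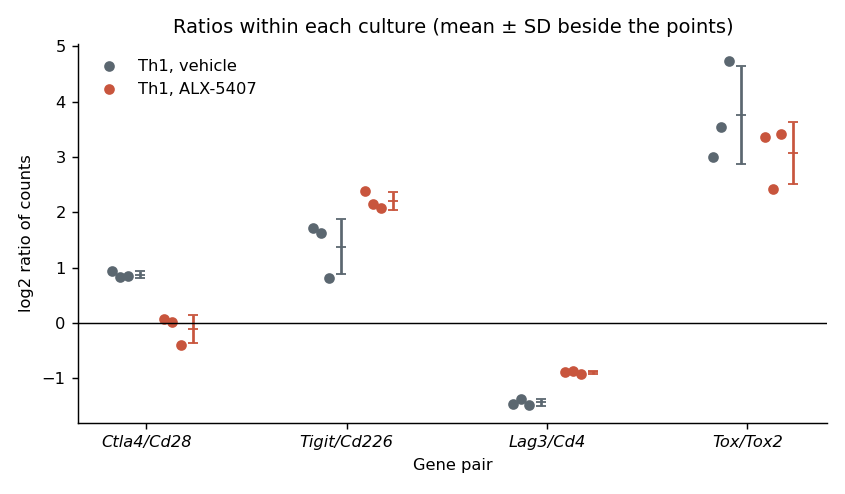
The log2 ratio of counts of 2 genes is plotted for each vehicle (grey) and treated (red) culture, with mean ± SD beside the points. Treated cultures lie lower for Ctla4/Cd28 and higher for Tigit/Cd226 and Lag3/Cd4, and the groups overlap for Tox/Tox2.

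The genomic neighbours of the receptors were looked up within 250 kb after their values were known. Ctla4 lies between Cd28 and Icos on chromosome 1, 113.6 kb from the first and 62.1 kb from the second. A ribosomal protein pseudogene, Rpl18-ps1, lies within the span of Ctla4 and had a mean of 67.0 counts against 28266.5 for Ctla4. Of these 3 CD28 family genes, Ctla4 fell and Cd28 rose, while Icos differed by -0.08 on the log2 scale (edgeR, adjusted p = 0.412). Lag3 and Cd4 are 16.1 kb apart on chromosome 6. Btla lies 124.5 kb from Cd200, the gene of an inhibitory ligand, which fell from 465.7 ± 45.4 to 153.6 ± 13.3 CPM (-1.60 on the log2 scale, edgeR adjusted p = 1.12e-09).

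The profiles most like those of Havcr2 and Btla were sought by the distance between centred log2 CPM over the 6 libraries among 12117 genes with a mean of at least 50 counts. For Havcr2 these were 6530402F18Rik, Maf and Gm28875, at distances of 0.176 to 0.185. Maf, a transcription factor that drives IL-10 in T cells, went from 50.1 ± 4.44 to 123.1 ± 2.41 CPM. For Btla they were Snx10, Eif4a2 and Alox15, at distances of 0.113 to 0.175, and Snx10 went from 106.9 ± 13.7 to 50.7 ± 2.04 CPM. With 2 groups of 3 cultures, a small distance mainly says that a gene has a fold change of the same size.

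The related lists are read against the 24.5% of all genes tested that were higher and the 23.2% that were lower. Of 16 genes for ligands of these receptors or, for Tnfsf14, of HVEM, 13 were tested. Of these, 2 were higher and 3 lower, with a median log2 fold change of -0.16. The largest change was that of Cd80, a ligand shared by CTLA-4 and CD28, which fell from 18.6 ± 0.837 to 5.89 ± 0.610 CPM (-1.66 on the log2 scale, edgeR adjusted p = 2.54e-08). Lgals3, the gene of galectin-3, which binds LAG-3, fell by 0.79 on the log2 scale, and Tnfsf14, which encodes the HVEM ligand LIGHT, by 0.60. Pdcd1lg2, the gene of PD-L2, rose by 0.36, and Nectin2, which encodes the TIGIT ligand CD112, by 0.48 (adjusted p = 0.0254 and 0.0239 from edgeR). Cd274, the gene of PD-L1, differed by -0.12 on the log2 scale (edgeR, adjusted p = 0.191), and Tnfrsf14, the gene of HVEM, by -0.17 (edgeR, adjusted p = 0.104). Lgals9, the gene of galectin-9, differed by 0.0041 (edgeR, adjusted p = 0.971). Cd86, the other CTLA-4 and CD28 ligand, differed by 0.06 (edgeR, adjusted p = 0.787). The count of higher ligands was 0 without the first vehicle culture and 0 without the second treated culture, and it was 1 without the second vehicle culture. Lower ligands numbered 6 without the third vehicle culture.

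Among 17 other inhibitory receptors, 14 were tested, with 2 higher, 6 lower and a median log2 fold change of -0.34. Klre1 (log2 fold change -1.46), Lilrb4a (-1.01), Cd96 (-0.90) and Cd72 (-0.52) fell. Lilrb4a, a receptor with inhibitory tail motifs, went from 127.2 ± 10.9 to 63.2 ± 3.00 CPM (edgeR, adjusted p = 5.24e-08). Cd96, which like TIGIT binds CD155, went from 7.56 ± 0.939 to 4.04 ± 0.332 CPM (edgeR, adjusted p = 0.000193). The genes that rose were Lair1, a collagen receptor (0.79), and Cd5, which dampens T cell receptor signalling (0.24). Without the second treated culture only 1 of them was called higher. The number of lower receptors was 4 without the first vehicle culture, 4 without the second and 4 without the first treated culture.

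The 10 activating or structural counterparts included 1 gene that rose, Cd28, and 6 that fell, with a median of -0.52. Crtam, an adhesion receptor of activated T cells, had a log2 fold change of -1.5, Tnfrsf9 (4-1BB) of -0.69 and Cd2 of -0.68. The fall of Tnfrsf9 was from 1585.8 ± 66.1 to 981.1 ± 68.4 CPM (edgeR, adjusted p = 1.41e-06).

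Among 16 genes for signalling below these receptors and for their trafficking, 7 were higher and 3 lower, with a median of 0.15. The rises included Trat1 (log2 fold change 1.01), which encodes an adaptor that helps CTLA-4 reach the cell surface, and Lrba (0.81), whose product protects CTLA-4 from lysosomal breakdown. Lrba went from 107.6 ± 8.70 to 188.1 ± 10.2 CPM (edgeR, adjusted p = 4.43e-07). Adam10, a protease that sheds LAG-3, rose by 0.57, and Inpp5d, the lipid phosphatase SHIP-1, by 0.31. Sh2d1a, the adaptor SAP, fell by 1.00, Cblb, a ubiquitin ligase that limits T cell activation, by 0.84 and Dok2, an inhibitory adaptor, by 0.32. The number of higher genes was 4 without the first treated culture and 4 without the second.

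Transcription factors linked to exhaustion or effector state numbered 21, of which 20 were tested, with 10 higher, 5 lower and a median of 0.33, where 24.5% of all genes were higher and 23.2% lower. Prdm1, which encodes Blimp-1, rose most, from 19.0 ± 0.967 to 89.7 ± 8.01 CPM (2.24 on the log2 scale, edgeR adjusted p = 4.47e-11). Maf rose by 1.30, Eomes by 1.05 and Nfatc1 by 0.96 on the log2 scale. Nr4a2, an early response factor induced by T cell receptor signals, fell most, from 69.7 ± 5.43 to 19.3 ± 2.69 CPM (-1.85 on the log2 scale, edgeR adjusted p = 1.12e-09). Myb fell by 0.85, Bhlhe40 by 0.54 and Nr4a3 by 0.35. Nr4a1, of the same family as Nr4a2 and Nr4a3, differed by 0.014 on the log2 scale (edgeR, adjusted p = 0.911). The list thus held called genes in both directions.

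**Figure D5:**
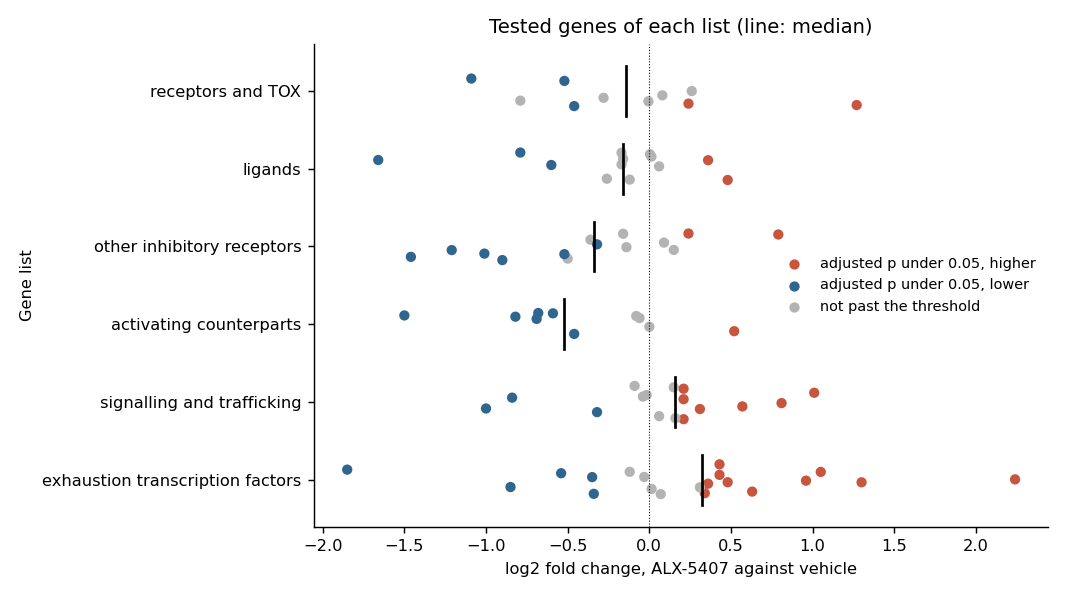
Each point is a tested gene, placed by its log2 fold change between ALX-5407 and vehicle cultures and coloured by its edgeR call, with a line at the median of the list. The medians run from -0.52 for activating counterparts to 0.33 for the transcription factors, and every list holds genes on both sides of 0.

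Markers of other cells were checked because several of these receptors are shared with regulatory T cells, follicular helper T cells and NK cells. The CD4+ T cell list (Cd3e, Cd3d, Cd3g, Cd4, Trac, Trbc2 and Lck) was present throughout, at a sum of 2235.4 to 2344.4 CPM in vehicle and 1851.2 to 1970.5 CPM in treated cultures, with 4 of 7 genes lower. Of 5 regulatory T cell markers, 3 were higher and 2 lower, and their sum, mostly Il2ra, was 2344.3 to 2927.0 CPM against 3259.9 to 3453.9 CPM. Foxp3, the defining factor of these cells, went from 12.8 ± 2.16 to 21.2 ± 2.30 CPM (0.73 on the log2 scale, edgeR adjusted p = 0.000204). Il2ra and Ikzf2 were higher as well, whereas Tnfrsf18 (log2 fold change -0.59) and Ikzf4 (-0.44) were lower. The list thus did not move in one direction. Follicular helper markers summed to 106.3 to 128.1 CPM in vehicle and 132.0 to 151.7 CPM in treated cultures, mostly Il21, with 1 of 4 higher and 1 lower. The NK list summed to 13.9 to 19.2 CPM against 12.8 to 17.4 CPM with 2 of 6 genes tested, and the defining markers Ncr1 and Klrb1c had at most 9 counts in any library. The CD8 genes summed to 9.25 to 9.59 CPM against 6.71 to 8.87 CPM. Cd8a was lower, whereas Cd8b1 differed by -0.007 on the log2 scale (edgeR, adjusted p = 0.976).
Markers of γδ T cells (10.1 to 12.2 against 10.3 to 12.7 CPM, 1 of 4 higher), dendritic cells (4.05 to 4.87 against 3.05 to 3.73 CPM, Siglech at 0) and erythroid cells (0.461 to 0.91 against 0.428 to 0.697 CPM) were low. The B cell list summed to 23.6 to 27.5 against 17.0 to 20.5 CPM, but the lower sum came from Ebf1 alone, which fell from 17.6 ± 1.43 to 5.71 ± 0.857 CPM. Pax5, Ms4a1 and Cd79a of the same list were higher, with Pax5 going from 2.15 ± 0.48 to 4.02 ± 0.83 CPM. The myeloid sum of 85.6 to 96.5 against 30.3 to 37 CPM was nearly all Ly6g and Cd68, both lower, whereas the other 7 genes of that list had at most 15 counts and S100a8 had 0. The part of these markers in the receptor changes was not tested.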

How the data were processed

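RNA was measured in 6 cultures, 3 per group, grouped and numbered by the sample titles. The columns named ctrl were taken as the group whose titles do not name ALX-5407. The deposited values are raw read counts per gene, which the authors neither normalized nor pooled. The submitters' processing notes name fastp, HISAT2 2.0.5, featureCounts 1.5.0-p3 and mm10 (GRCm38), and the strand setting is not given in the sources used here. The labels describe poly-T capture and the methods ribosomal RNA depletion. Gene spans of all 10 members equal those of GENCODE M21.

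From the counts, edgeR 4.0.16 (R 4.3.3) was run with filterByExpr (minimum count 10, minimum total 15), TMM factors of 0.965 to 1.03, the quasi-likelihood F test and Benjamini-Hochberg adjustment over 15938 genes. Standard errors and intervals were derived from the F statistic. The study names DESeq2, run here as an alternative (1.42.0), besides limma-voom (limma 3.58.1), other scalings and filters, a replicate block and each culture left out. The steps were tested on simulated counts in which far fewer genes changed than here. That test does not show how the steps behave when so many genes change. Ratios had 0.5 counts added. No 2 libraries of a group were as alike as counting error alone allows (chi-square statistics 5.58 to 22.3 times their degrees of freedom). Libraries with the same number did not deviate together (correlations 0.009, 0.018 and 0.104), so the numbers were not taken as pairs.

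Members and gene lists were chosen with earlier results of these data known. Named are the 10 members and their counterparts, in each related list up to 4 called genes with the largest change each way (mean of at least 50 counts), the 3 profiles most like Havcr2 and Btla, and markers. A few uncalled genes of these lists are named as well. Promoter windows are RefSeq's. Figures used matplotlib 3.10.9. Some genes that were looked up are not reported here.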

Additional observations from a re-analysis of the deposited data

How the results depend on the processing

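Havcr2, Btla, Pdcd1 and Ctla4 kept direction and call under all 15 alternatives, with log2 fold changes of 1.21 to 1.34, -1.16 to -0.96, -0.58 to -0.47 and -0.51 to -0.37. With 1 culture left out at a time, the count of higher members was 1 to 2, and that of members lower by more than 2-fold 0 to 2. Higher ligands then numbered 0 to 2 and lower ligands 3 to 6. Other inhibitory receptors numbered 1 to 2 higher and 4 to 6 lower, and higher signalling genes 4 to 6. In the same fits the log2 fold change of Vsir was 0.17 to 0.28, Lag3 -0.037 to 0.17, Tigit -0.17 to 0.07, Cd160 -1.07 to -0.63, Tox -0.43 to -0.17 and Tox2 -0.16 to 0.68. With upper quartile scaling 1 ligand was higher, 6 were lower and 4 signalling genes were higher. DESeq2 called 1 ligand higher. On protein-coding genes alone, an alternative chosen after seeing the data, 6 ligands were lower and 4 signalling genes higher. Requiring 10 counts in every library gave Cd160 -0.81 (adjusted p = 0.0491 from edgeR) and removed Tox2. Tigit, near 0, was 0.06 with total counts, 0.0045 without a filter, 0.012 in limma-voom and 0.011 with the replicate block. That block changed no call of a member and gave 4071 higher and 3833 lower genes, against 3910 and 3695. Not every library correlated best with its own number. Without length, the order of levels changed: in vehicle cultures Btla ranked 2, Lag3 3, Vsir 4, Tigit 5, Tox 7 and Havcr2 8, and in treated cultures Vsir 2, Lag3 3, Btla 4 and Tigit 5, so that Btla then stood above Tigit. The cause of these shifts was not tested. Cd160 and Tox2 had few counts, with means of 30.3 and 29.2.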
